A study of Mus musculus with 2 samples.

Results

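The resistin-like family of the mouse consists of 4 genes, Retn, Retnla, Retnlb and Retnlg, and all 4 were found by their symbols among the 40879 gene symbols measured. They were chosen by symbol, with the counts of the same WT and ERAP1+/- libraries already known, so that their levels and differences are a description and carry no test. The libraries came from intestine of C57BL/6 mice, 8 weeks old and without treatment, that were wild type (WT) for Erap1 or hetero type (ERAP1+/-). ERAP1, endoplasmic reticulum aminopeptidase 1, trims peptides before they are loaded on MHC class I molecules. The ERAP1+/- mice go back to embryonic stem cells with a tm1a allele, and mice heterozygous for it were mated with a Cre-expressing strain that is not named. The methods call the mice germ-free and state that they were housed in a specific pathogen-free facility. RNA of 3 mice was pooled for each genotype and read as 1 library from the 3' ends of polyadenylated transcripts, so that no difference has a replicate check. All intervals given are 95% intervals for counting error only.

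These genes encode small secreted proteins with a cysteine-rich end. Resistin (Retn) is a hormone that mouse adipocytes release and that opposes the action of insulin. RELMα (Retnla) is made by macrophages under interleukin-4 and interleukin-13, and also in fat and skin. RELMβ (Retnlb) is released by goblet cells of the large intestine into the lumen, where it acts against bacteria, and it is known to be induced by bacterial colonization and by type 2 cytokines. RELMγ (Retnlg) is found in bone marrow and neutrophils.

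The family was split in direction between the libraries. Retnlb was counted 36 times in WT and 118 times in the library labelled ERAP1+/-, and Retnlg had 0 and 18 reads. Retnla had 272 and 155 reads, and Retn had 61 and 30. Hence, Retnlb and Retnlg were higher in the library labelled ERAP1+/-, and Retnla and Retn were lower. Marker lists of the cells known to make these proteins, given with each member, did not all go the same way as the member.

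Depth was 8114826 counted reads for WT and 8907515 for the library labelled ERAP1+/-, with 18.0% and 16.7% of them on mitochondrial and ribosomal RNA features. Erap1 itself had 229 and 2 reads and was 137-fold lower (37.5 to 1139) in the library labelled ERAP1+/-, which goes against a label under which 1 intact copy is expected. The assay reads the 3' ends of transcripts and the counts carry no read positions, so they do not check deletion of the floxed exons. Intestinal epithelium was present in both libraries: the 10 genes of that list, among them Lgals4, Cdh1 and Epcam, summed to 9836 and 8106 CPM, that is, counts scaled to a common library size. Of these 10 genes, Krt20 (5156 and 2674 reads) was more than 2-fold lower. The colon list, led by Saa1, Car4 and Car1, summed to 7931 and 5351 CPM, and Car4 (15163 and 8391 reads) was 2.16-fold lower in the library labelled ERAP1+/-. The small intestine list summed to 188 and 177 CPM, most of it Slc5a1 (1273 and 1201 reads). Within that sum Fabp2 (56 and 299 reads) was 4.46-fold higher, and Fabp6 had 66 and 77 reads. Sis and Apoa4, which define the small intestine, had no read. The libraries differed in other tissues as well. All 12 epidermis genes were more than 2-fold lower in the library labelled ERAP1+/-, with summed levels of 3514 and 40.1 CPM, and so were 11 of 12 skeletal muscle genes, led by Ttn, Acta1 and Tnnt3 in reads and by Myh1 (909 and 1) in difference, with 1177 and 22.0 CPM. Xist had 1635 and 6451 reads, and the Y-linked genes Ddx3y, Uty, Eif2s3y and Kdm5d summed to 612 and 46, so that the sex make-up of the pools and the genotype cannot be told apart.

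By GENCODE M21 (build GRCm38), Retn (ENSMUSG00000012705.16) is found at positions 3655770 to 3660110 of chromosome 8, plus strand. The other members lie together on the plus strand of chromosome 16, within 57641 bp. Retnlb (ENSMUSG00000022650.7) runs from 48816856 to 48818892, Retnla (ENSMUSG00000061100.4) from 48842551 to 48844461, and Retnlg (ENSMUSG00000022651.6) from 48872621 to 48874496. Each has 4 exons, and none overlaps another annotated gene. Retnlb and Retnla are 23659 bp apart, and Retnla and Retnlg 28160 bp. Thus Retnla, which was lower in the library labelled ERAP1+/-, lies between the 2 members that were higher. The protein-coding genes on either side of the cluster are Trat1, with 0 and 4 reads, and Dzip3, with 79 and 157 reads.

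The coding part of exon 4, the last coding exon, is shown for each member because it holds the cysteine-rich end by which the family is known and because its likeness between members bears on whether their reads can be told apart. Capitals mark cysteine codons (TGT or TGC) in frame, and the sequences are those of the GENCODE M21 transcripts Retn-202, Retnla-201, Retnlb-201 and Retnlg-201.
Retn: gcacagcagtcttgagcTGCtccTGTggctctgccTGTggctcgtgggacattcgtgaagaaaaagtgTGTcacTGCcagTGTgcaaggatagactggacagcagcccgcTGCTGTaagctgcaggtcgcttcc
Retnla: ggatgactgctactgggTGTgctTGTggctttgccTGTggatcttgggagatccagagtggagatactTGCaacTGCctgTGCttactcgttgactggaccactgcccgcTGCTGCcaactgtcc
Retnlb: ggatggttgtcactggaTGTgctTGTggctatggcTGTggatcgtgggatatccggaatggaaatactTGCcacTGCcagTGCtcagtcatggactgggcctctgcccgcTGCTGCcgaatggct
Retnlg: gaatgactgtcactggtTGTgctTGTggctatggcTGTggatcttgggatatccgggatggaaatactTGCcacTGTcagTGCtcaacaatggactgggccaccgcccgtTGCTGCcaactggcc
They lie at chr8:3657250-3657383, chr16:48844174-48844298, chr16:48818628-48818752 and chr16:48874217-48874341. Each stretch holds 8 cysteine codons. The members on chromosome 16 have 125 bases here and Retn has 134. Retnlb and Retnlg were the most alike, with 87.2% identity, against 80.8% for Retnla with either of them and 61.8% to 63.4% for Retn with the others. Over the whole coding sequence, the identity ran from 51.4% (Retn and Retnla) to 72.9% (Retnlb and Retnlg). The longest run of bases that transcripts of 2 members share was 49, between Retnla and Retnlg. None of the 525 words of 75 bases in the Retnla transcript, the 622 of Retnlb, the 519 of Retnlg and the 1504 of Retn occurred in a transcript of another gene, so that a full-length read without error belongs to 1 member. Reads shortened by trimming were not examined.

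CPM were computed on library sizes corrected with TMM factors (trimmed mean of M values), and differences are on the log2(CPM + 1) scale, on which low genes appear to differ less than their ratio. Retnla was the most abundant member in both libraries. It stood at 35.0 CPM (31.0 to 39.4) in WT and at 16.7 CPM (14.1 to 19.5) in the library labelled ERAP1+/-, more reads than 76.8% and 64.5% of the genes detected there. These intervals do not overlap, and the level was 2.10-fold lower (1.72 to 2.58), a log2 difference of -1.03. It was the only member that reached a log2(CPM + 1) of 4 in 1 or both libraries, with 5.17 and 4.14, and with a difference above 2-fold it was called lower. Of the 8013 gene symbols past that level, 3.96% were called lower and 1.39% higher. With scaling by the total count alone, which moved the median difference of these genes by 0.122 on the log2 scale and gave 166 higher and 248 lower genes in place of 111 and 317, the log2 difference of Retnla was -0.91, and it was no longer called.

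Retn stood at 7.85 CPM (6.0 to 10.1) in WT and at 3.22 CPM (2.18 to 4.6) in the library labelled ERAP1+/-. It was 2.43-fold lower (1.55 to 3.90), with a log2 difference of -1.07, or -0.96 with scaling by the total count. Retn and Retnla were thus lower by a similar factor, and the quotient of Retnla to Retn reads differed 1.16-fold between the libraries, with an interval (0.702 to 1.94) that includes 1.

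Retnlb stood at 4.63 CPM (3.24 to 6.41) in WT and at 12.7 CPM (10.5 to 15.2) in the library labelled ERAP1+/-. The ratio was 2.74 (1.87 to 4.10), and the log2 difference was 1.28, or 1.39 with scaling by the total count. Retnlg was not detected in WT, where its 0 reads have an exact upper limit of 0.475 CPM and the floor of 3 reads used for such genes stands at 0.386 CPM. In the library labelled ERAP1+/- it had 1.93 CPM (1.15 to 3.06). Against that floor of 3 reads it was at least 5.01-fold higher, while the exact 95% interval of the ratio has a lower limit of 3.67.

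All 4 members had at least 10 reads over both libraries, Retnlg through the library labelled ERAP1+/- alone, which means that it had to differ to be counted. By this filter and a 2-fold difference, Retn and Retnla were lower and Retnlb and Retnlg higher. Of the 16142 symbols with as many reads, 5.63% were lower and 2.99% higher by the same rule, and nothing is read from the members' count since they were chosen on this contrast. Because the tissue was sequenced in bulk, fewer cells of a type and less RNA per cell cannot be told apart.

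**Figure D1:**
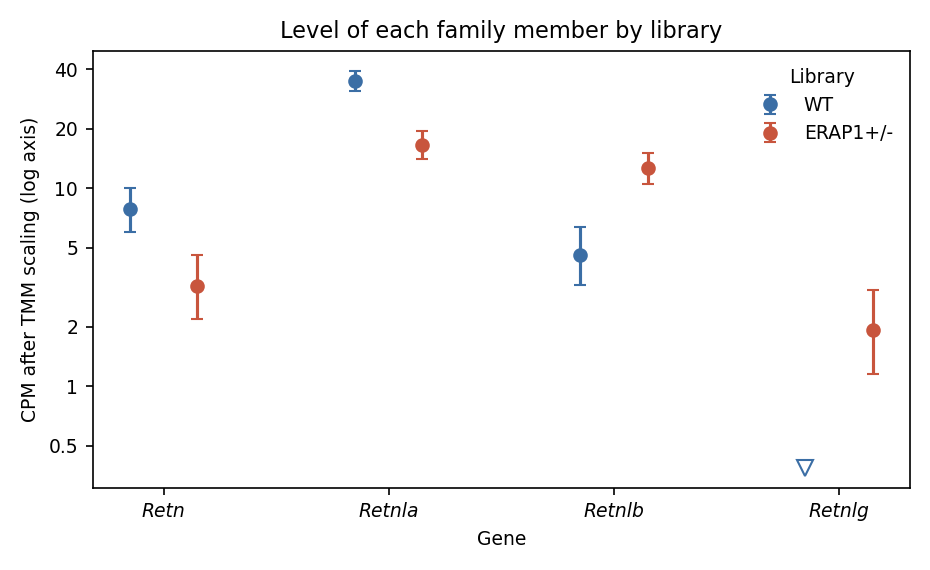
Level of each family member in the WT and ERAP1+/- libraries, as CPM after TMM scaling on a log axis. Points are the 1 library per genotype, bars are exact 95% Poisson intervals for counting error, and the open triangle stands at the floor of 3 reads (0.386 CPM) in place of the 0 reads of Retnlg in the WT library, whose exact upper limit is 0.475 CPM. Retn and Retnla sit lower and Retnlb and Retnlg higher in the library labelled ERAP1+/-.

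Since the assay reads the ends of transcripts, counts do not grow with transcript length, and levels of the members are compared on both scales. In the WT library, the order by CPM was Retnla, Retn, Retnlb, Retnlg, and the intervals of Retn and Retnlb overlap. Per kilobase of transcript the order was the same, with 58.4 CPM per kb for Retnla, 6.66 for Retnlb, and 8.98 or 6.89 for Retn, by its transcript of 874 or 1139 bases. In the library labelled ERAP1+/-, the order by CPM was Retnla, Retnlb, Retn, Retnlg. There the CPM intervals of Retnla and Retnlb overlap, as do those of Retn and Retnlg. Per kilobase, Retnla (27.8) and Retnlb (18.2) kept their places. Retn had 3.69 or 2.83 CPM per kb and Retnlg 3.26, so that their order depends on which Retn transcript is assumed.

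The make-up of the family is taken from the same reads, so that it restates the differences above as shares. Shares need no scaling between libraries. The members had 369 reads together in the WT library and 321 in the library labelled ERAP1+/-. Retnla made up 73.7% (Wilson interval 69% to 77.9%) of the family's reads in the WT library and 48.3% (42.9% to 53.7%) in the other. The share of Retnlb was 9.76% (7.13% to 13.2%) and 36.8% (31.7% to 42.2%). Retn made up 16.5% and 9.35%, and Retnlg 0% and 5.61%. The quotient of Retnla to Retnlb reads was 5.75-fold lower (3.71 to 9.03) in the library labelled ERAP1+/-. Retnla alone thus held most of the family's reads in WT, and Retnla and Retnlb together in the other library.

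**Figure D2:**
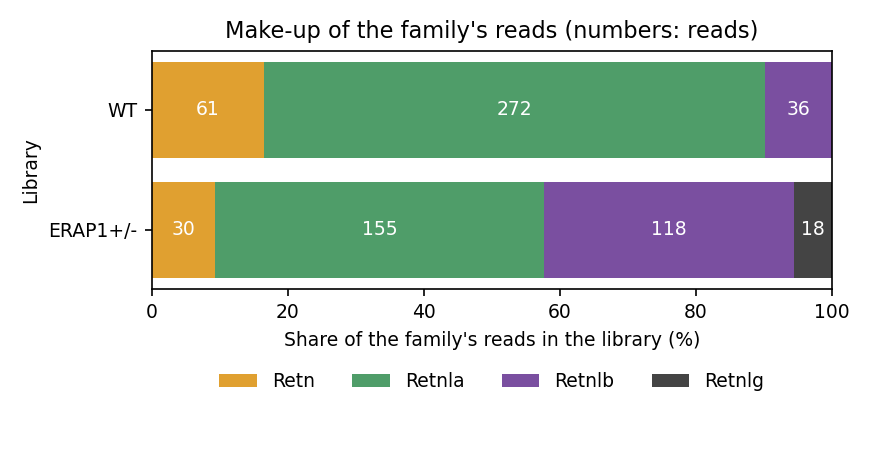
Share of the family's reads (percent) taken by each member in the WT and ERAP1+/- libraries, with the number of reads written in each segment. Retnla takes 73.7% of the WT bar and 48.3% of the other, and Retnlb 9.76% and 36.8%.

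For Retnlb, genes of the goblet cell stood higher in the same library. All 14 genes of the goblet cell list had more CPM in the library labelled ERAP1+/-, and 3 of them were more than 2-fold higher on the log2 scale: Rep15 (863 and 2506 reads), Muc2 (12020 and 32939), the main gel-forming mucin of the gut, and Sytl2 (254 and 691). Zg16 (23458 and 42072 reads) and Clca1 (12826 and 25261), 2 further abundant goblet cell products, had log2 differences of 0.58 and 0.72. The median of the list was 0.71, against 0.0020 over all genes with at least 10 reads, and the summed levels were 9265 and 15136 CPM. Retnlb had 3.0 reads per 1000 reads of Muc2 in the WT library and 3.58 in the library labelled ERAP1+/-, a ratio of 1.20 with an interval (0.817 to 1.79) that includes 1. Against the whole goblet list the ratio was 1.68 (1.15 to 2.51), and against the intestinal epithelium list it was 3.32 (2.27 to 4.97). Retnlb thus stood higher relative to epithelium as a whole and to the whole goblet list, and not detectably relative to Muc2 alone. Muc2 itself had a log2 difference of 1.19, above the median of its list. What part goblet cell RNA had in the difference of Retnlb was not tested.

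Transcription factors of the epithelium were mostly higher in the library labelled ERAP1+/-, with a median log2 difference of 0.45. Of 9 such genes, Atoh1, which sets the secretory fate (97 and 310 reads), and Foxa2 (425 and 1038) were more than 2-fold higher, and none was lower by that much. The Atoh1 difference was 1.35 and that of Foxa2 1.02 on the log2 scale. Cdx2, a regulator of intestinal identity, had 86 and 172 reads and Cdx1 1080 and 1772, both within 2-fold. Spdef (48 and 115), Foxa1 (225 and 360) and Foxa3 (313 and 510) were also higher, within 2-fold on that scale. Only Hnf4a (2541 and 2744) and Klf4 (20240 and 15474) were lower, with differences of -0.15 and -0.65.

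Other antimicrobial products of the epithelium did not move as a block. Of the 10 genes of this list with at least 10 reads, 4 were more than 2-fold higher in the library labelled ERAP1+/-. These were Reg3b (1 and 546 reads), Reg3g (0 and 232), Ang4 (114 and 911) and Pla2g2a (14 and 60), while Lcn2 was lower (39 and 13). Reg3b and Reg3g passed the read filter through the library labelled ERAP1+/-, which means that they had to differ to be counted. The most abundant, Lypd8, which keeps flagellated bacteria from the colonic epithelium, had 70445 and 48750 reads and a difference of -0.79. Sprr2a3 was at -0.77 and Pigr at 0.45. The list's median was 0.54, and its summed level, most of it Lypd8, was 10449 and 7029 CPM. Relative to that sum, Retnlb was higher by a ratio of 4.07 (2.78 to 6.09).

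**Figure D3:**
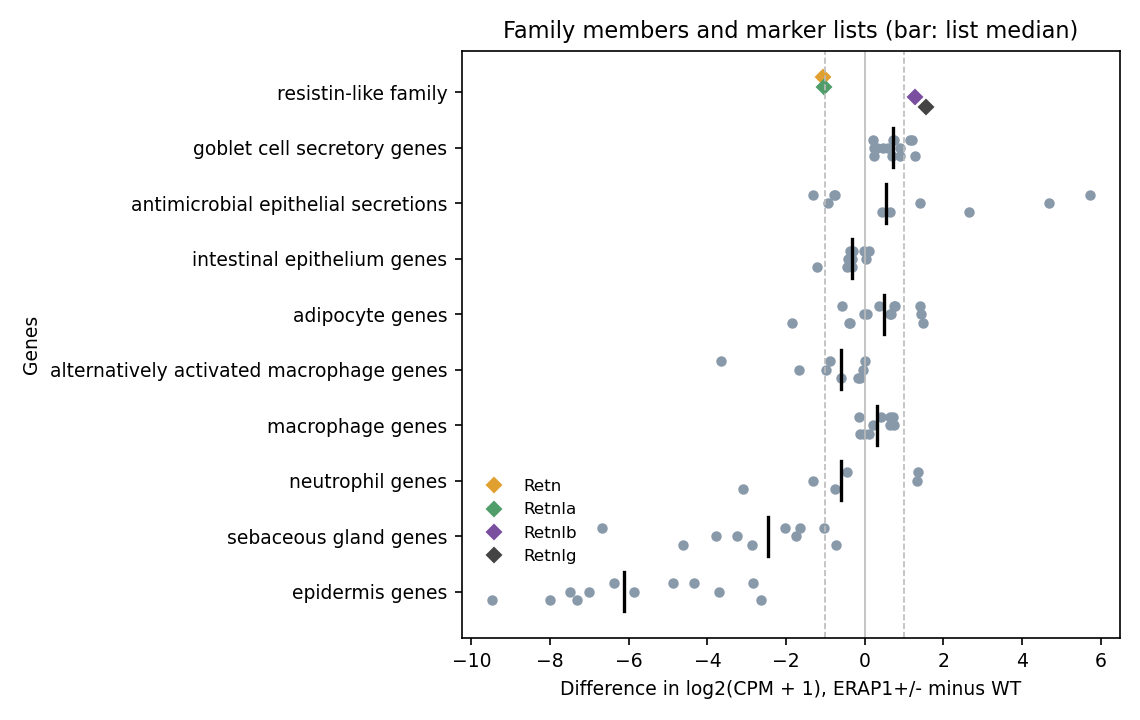
Difference in log2(CPM + 1), ERAP1+/- minus WT, for the 4 members (diamonds) and for the genes with at least 10 reads in 9 marker lists (dots, with the list median as a bar). Dashed lines mark 2-fold. The goblet cell genes all lie above 0 with Retnlb, and the sebaceous gland and epidermis genes all lie below 0 with Retn and Retnla.

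The type 2 pathway, known to induce Retnla and Retnlb, was measured mainly by its receptors and signalling proteins. Of the 7 ligands, Il4, Il5, Il9, Il13 and Il25 had no read in either library, which is a limit of the depth and allows up to 3 reads each. Il33 (59 and 52 reads) and Tslp (22 and 28) were within 2-fold. Of 6 receptor genes with at least 10 reads, Il2rg, the common gamma chain (22 and 96), had a difference of 1.56 and Il13ra2, a decoy receptor of interleukin-13 (22 and 6), one of -1.22. Il4ra (182 and 244) and Il13ra1 (312 and 456), which form the receptor on epithelium, had differences of 0.16 and 0.28, and Crlf2 one of 0.05. Of 6 kinases and transcription factors, Jak3 (4 and 27) was more than 2-fold higher and Gata3 (71 and 25) more than 2-fold lower. Which cells the reads of Il2rg, Jak3 and Gata3 came from was not tested. Stat6, the factor that carries the interleukin-4 and interleukin-13 signal to the nucleus, had 225 and 253 reads and a difference of -0.09, with Jak1 at -0.03 and Tyk2 at 0.25. The medians of the ligands, receptors and signalling proteins were -0.16, 0.22 and 0.11.

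The promoters of Retnla and Retnlg are shown because these neighbours, opposite in direction here, have similar upstream sequence with TTC and GAA separated by any 4 bases, the spacing that STAT6 binds. The sequences are from RefSeq on GRCm38.p6, plus strand, cut off before the first annotated start, at chr16:48842359-48842550 for Retnla and chr16:48872358-48872607 for Retnlg, with the match in capitals.
Retnla: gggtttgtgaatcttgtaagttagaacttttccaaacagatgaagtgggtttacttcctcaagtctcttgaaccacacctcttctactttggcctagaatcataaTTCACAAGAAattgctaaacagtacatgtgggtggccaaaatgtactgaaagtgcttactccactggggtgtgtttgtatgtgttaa
Retnlg: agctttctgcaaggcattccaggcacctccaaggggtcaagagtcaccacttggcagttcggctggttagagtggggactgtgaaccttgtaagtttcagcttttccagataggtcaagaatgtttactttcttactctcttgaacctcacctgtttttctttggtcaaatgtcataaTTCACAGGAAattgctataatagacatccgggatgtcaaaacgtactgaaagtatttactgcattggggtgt
The windows of 300 bases around the RefSeq start were searched, 3 of the 4 members having one, Retn, Retnla and Retnlg. These letters read the same on both strands. Retnla held TTCACAAGAA, ending 136 bases before the RefSeq start, and Retnlg TTCACAGGAA, ending 63 bases before it. Counted to the GENCODE starts given above, the distances were 78 and 76 bases, so that the unlike RefSeq distances reflect the start chosen. The letters did not occur in the Retn window. Of 32851 promoter windows of the mouse, 6.95% held them. In a local alignment, 228 aligned bases of the Retnla and Retnlg windows had 78.1% identity, whereas the best alignment of Retn with either spanned 11 or 32 bases. A match is a description of the sequence and not evidence of binding.

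For Retnla, lists of the cells known to make it went in different directions. Of the 9 alternatively activated macrophage genes with at least 10 reads, Arg1 (591 and 48 reads) and Chil4 (17 and 0) were more than 2-fold lower and none was higher by as much, with a median of -0.60. Chil4 passed the read filter through the WT library alone. Mrc1 (325 and 357) and Clec10a (103 and 63) had differences of -0.12 and -0.88, and Folr2 (20 and 24) was at 0.0025. Mgl2 (83 and 46) was at -0.97, within 2-fold on this scale, while its CPM ratio was 2.16-fold lower (1.49 to 3.17). Arg1, an arginase that is also made outside macrophages, took most of the difference of the list, which summed to 155 and 64.5 CPM. Relative to that list Retnla differed by a ratio of 1.14 (0.909 to 1.43), and without Arg1 it was 1.59-fold lower (1.25 to 2.01). Macrophage genes in general were not lower: none of 10 passed 2-fold, C1qa (352 and 493), Csf1r (287 and 539) and Mertk (399 and 435) among them, and their median was 0.32. Relative to these, Retnla was 2.68-fold lower (2.17 to 3.31).

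Skin genes were lower together with Retnla and Retn. Of the 10 sebaceous gland genes, 9 were more than 2-fold lower, with a median of -2.45. They include Scd3 (881 and 1 reads), Awat1 (182 and 0), Elovl3 (99 and 0) and Fa2h (487 and 282), while Soat1 (938 and 675) was within 2-fold. Awat1 and Elovl3 passed the read filter through the WT library alone. The list summed to 389 and 107 CPM, so it was 3.64-fold lower, and relative to it Retnla stood 1.73-fold higher (1.40 to 2.15) in the library labelled ERAP1+/-. Epidermis genes were lower by far more, with a median of -6.11, Flg having 7952 and 4 reads, Spink5 4453 and 24, Krt10 3922 and 72, Krtdap 3681 and 15, and Calm4 2399 and 2. Skeletal muscle genes had a median of -5.23. Reads of the epidermis list summed to 27304 (WT) and 373 (ERAP1+/- label), beside 272 and 155 for Retnla. The part of skin and muscle RNA in the lower levels of Retnla and Retn was not tested.

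For Retn, the adipocyte genes were divided, and their median went the other way. Of the 14 genes of that list, Cfd (163 and 558 reads), Acvr1c (38 and 138) and Adipoq, the adipocyte hormone adiponectin (34 and 124), were more than 2-fold higher in the library labelled ERAP1+/-, and only Scd1, which sebaceous glands and other cells make too (1405 and 459), was lower by as much. Fabp4 (435 and 887) was at 0.76 and Car3 (446 and 352) at -0.59, and the median of the list was 0.50. Summed, the list had 431 and 391 CPM, of which Scd1 gave 181 and 49.3. Retn and Adipoq were therefore opposite in direction: Retn reads per Adipoq read were 7.42-fold lower (4.0 to 13.8), and Retn was 2.21-fold lower (1.40 to 3.55) relative to the whole adipocyte list. Relative to the sebaceous gland list, Retn differed by a ratio of 1.5, with an interval (0.927 to 2.37) that includes 1.

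**Figure D4:**
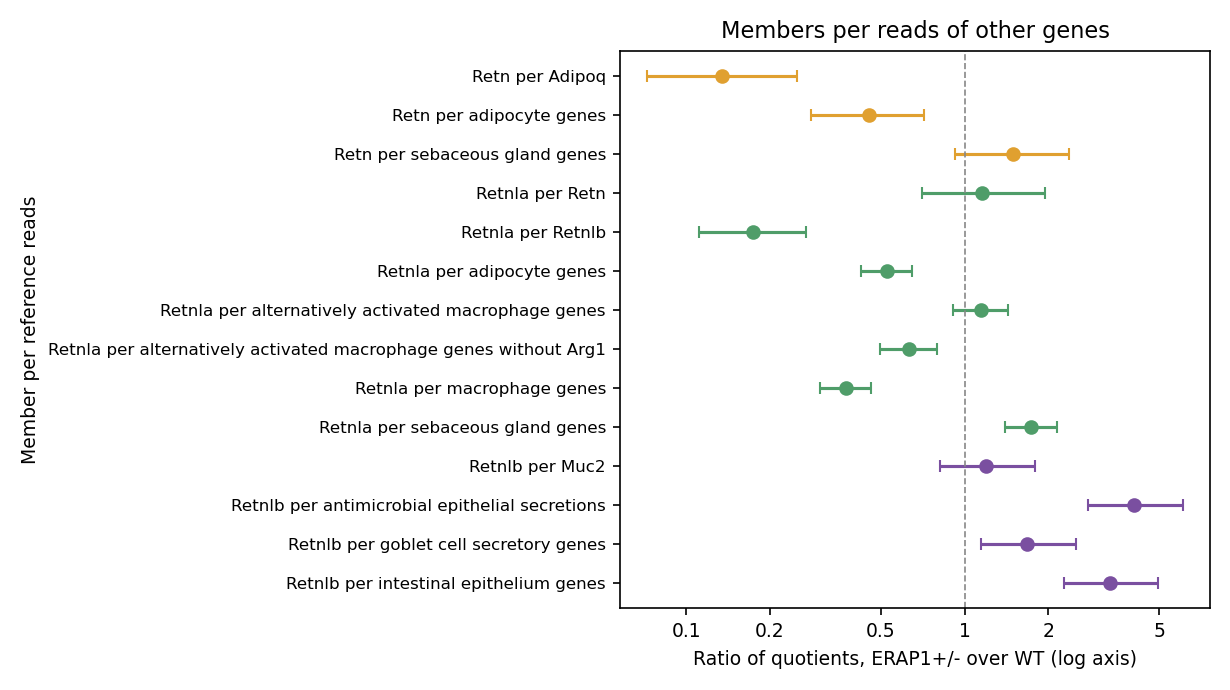
Reads of a member divided by reads of a gene or list in the same library, as the ratio of ERAP1+/- over WT on a log axis, with exact 95% conditional intervals for counting error (bars) and a dashed line at 1. The intervals of Retnlb per Muc2, Retnla per Retn, Retnla per alternatively activated macrophage genes and Retn per sebaceous gland genes include 1. Retn per Adipoq lies at 0.135. Quotients of Retnla per epidermis and per skeletal muscle genes, and those of Retnlg, are not drawn. Retnlb lies at 1.68 per goblet cell secretory genes and at 3.32 per intestinal epithelium genes.

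For Retnlg, neutrophil genes were few and divided. The alarmins S100a8 (49 and 165 reads) and S100a9 (52 and 171), which neutrophils carry in large amounts, were more than 2-fold higher, with differences of 1.36 and 1.33. Ltf (95 and 5), which epithelia make as well, and Ly6g (2867 and 1367) were more than 2-fold lower, and the median over the 6 genes with at least 10 reads was -0.61. The granule genes Camp, Ngp, Mpo and Elane had 3 reads or fewer in each library. Summed, the list had 401 and 189 CPM, most of it Ly6g, which stood at 369 and 147 CPM beside 6.31 and 17.7 for S100a8. Whether the Ly6g reads came from neutrophils was not tested. Retnlg had 0 reads beside 101 of S100a8 and S100a9 together in WT, and 53.6 reads per 1000 of theirs in the library labelled ERAP1+/-. The exact lower limit of the ratio between these quotients was 1.29, against 7.77 relative to the whole list, which is mostly Ly6g.

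Of the proteins proposed as receptors or partners of the family, Cap1 (795 and 635 reads), Tlr4 (278 and 315), Ror1 (46 and 81) and Dcn (9267 and 7568) were all within 2-fold. Their median difference was -0.31.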

How the data were processed

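RNA of untreated intestine, pooled from 3 mice per genotype, was sequenced as 1 library per genotype from transcript 3' ends (QuantSeq, 75-base reads). The authors deposited unnormalized counts, 1 whole number for each gene symbol and library. The methods name STAR with HTSeq and, elsewhere, Bowtie2 with RSEM on GRCm38, and which made the counts is not stated. Every row names a gene. TMM factors (0.958 for WT and 1.04 for ERAP1+/-) came from edgeR 4.0.16 in R 4.3.3, and CPM from the adjusted sizes. Ratios carry exact conditional binomial intervals, counts exact Poisson intervals and a floor of 3 reads. A gene was called past 2-fold on log2(CPM + 1), at a level of at least 4 or with at least 10 reads over both libraries. No test was possible with 1 library per group. Calls at a level of at least 4 and the intervals of CPM ratios were tested on simulated data. The simulated counts held counting error only, so variation between mice or in tissue make-up was not covered. The members and the 19 gene lists were chosen with earlier results of these data known. Named were all members, the 3 genes of each list with most reads and the 3 with the largest difference past 2-fold, and Erap1, while other genes were named after their values were seen. Quotients within a library and of the family were added after seeing the data. Alignments used Biopython 1.88 (match 1, mismatch -1, gap -3 and -1). Alternatives were DESeq2 1.42.0 size factors, the total count, a pseudocount of 0.1, thinning, other filters and reduced gene sets.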

Additional observations from a re-analysis of the deposited data

How the results depend on the processing

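No paired analysis was possible because both groups consist of a single library. The members kept their direction under all alternatives run. With scaling by the total count alone, Retn (-0.96) and Retnla (-0.91) came within 2-fold, since that scaling raises the library labelled ERAP1+/- as a whole. Retnlg, with no WT read, moved to 4.35 with a pseudocount of 0.1, so that its fitted difference is no measure of size. The numbers of all genes past 2-fold, 111 higher and 317 lower, were 482 and 908 with at least 10 reads over both libraries, 482 and 952 without any filter, while a 4-fold threshold gave 16 and 144. Per kilobase with the longer Retn transcript, 2 members, Retn and Retnlg, exchanged places in the library labelled ERAP1+/-. Depth limits Retnlg and the type 2 ligands, and intervals leave out the variation between mice.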

Other observations

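Enteroendocrine genes also had more reads in the library labelled ERAP1+/-. Of the 10 enteroendocrine and tuft cell genes with at least 10 reads, 5 were more than 2-fold higher and none lower, with a median log2 difference of 0.96. All 5 are enteroendocrine genes: Insl5, Gcg, Chga, Chgb and Neurod1. The peptide hormone genes Insl5 (403 and 2415 reads) and Gcg (152 and 695) had differences of 2.30 and 1.88, the granule protein gene Chga (271 and 822) was at 1.32, Chgb (498 and 1212) at 1.01, and Pyy (995 and 2007) at 0.75. The tuft cell genes did not pass 2-fold on the log2(CPM + 1) scale: Dclk1 was at 0.38, Trpm5 at 0.68 and Avil at 0.48, and Pou2f3 had 4 and 0 reads. Of the mast cell proteases, 2 were more than 2-fold lower: Mcpt4 had 34 and 3 reads and Tpsb2 50 and 9, with differences of -2.02 and -1.92, whereas Kit, which pacemaker cells of the gut wall share with mast cells, was higher, with a difference of 1.15. Cpa3 (16 and 6), Mcpt1 (8 and 6) and Mcpt2 (6 and 12) did not pass 2-fold on that scale, and Mcpt2 lay in the opposite direction. The median over the 8 genes of the eosinophil and mast cell list with at least 10 reads was -0.26.

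The genes nearest to each member by their level in the 2 libraries were named by Euclidean distance on the log2(CPM + 1) scale. Retnlb lay closest to Ugt2b35 (36 and 111 reads, distance 0.082) and Adipoq (34 and 124 reads, 0.095). Retn lay closest to Gm5296 (60 and 31 reads, 0.042) and Il7 (58 and 31 reads, 0.074), Retnla to Slc16a5 (273 and 154 reads, 0.010) and Adam33 (280 and 154 reads, 0.042), and Retnlg to 9130410C08Rik (0 and 18 reads, distance 0) and Aldh1a2 (0 and 19 reads, 0.052). With 2 libraries, such likeness is a matter of level and of a single difference.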
